A study of Amphiura filiformis with 28 samples.

Results

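The genes described here are the 100 genes of the brittle star *Amphiura filiformis* whose expression was most restricted to the first days after arm amputation. They were chosen from an RNA-seq series of arm regeneration with 8 samples. For each of the 28263 genes in that series, the lower of the values at 48 and 72 h post amputation (hpa) was set against the highest value in the other 6 samples, as a log2 ratio with 1 added to both. The 100 genes with the highest ratio, called the score below, are the members. The values of the time course therefore chose the members, and they are given as a description without a test. The explant values did not enter the score, although the choice was made with earlier results of these data known. All 100 members have a row in the explant table of 30090 genes.

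The study measured arm regeneration in untreated wild-type animals. The time course covers a non-regenerating control arm, 48 and 72 hpa, the later regenerates of stages 3, 4 and 5, and the proximal (P) and distal (D) parts of regenerates at the 50% stage, in which about that share of the regrown arm has differentiated. In the explant experiment, arms were cut off and cut again at their tip, which gave pieces with a wound at each end that were kept without the body. The distal end of such a piece regenerates, the proximal end only closes its wound, and the medial segment between them served as the control. The regenerating wound was always the distal one and was cut second. Regeneration, position along the arm and order of cutting therefore cannot be told apart between the ends. Distal, medial and proximal segments were sampled at 3 days post amputation (dpa), in 4, 4 and 3 samples, and at 5 dpa, in 3 samples each. Each time-course sample was a pool of regenerates from different individuals and had no replicate, and each explant sample was a batch of many segments. The dissected tissue differed between stages, with the arm segment at the cut taken at 48 and 72 hpa, a mature segment in the control and only the outgrowth at stages 3 to 5, so time and tissue cannot be told apart in the time course. The control sample carries the tissue label of an explant, but the methods describe a mature arm segment.

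Arm regeneration in brittle stars begins with closure of the wound by the epidermis and the gathering of coelomocytes, the circulating immune cells of echinoderms. A small bud then forms, its cells divide, and new segments are laid down behind a growing tip. Complement proteins, which tag foreign particles and dying cells for uptake, and receptors of immune cells are well-known parts of this first phase in animals.

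Values are TPM, a measure of the share of transcripts that come from a gene, which the authors rescaled between samples by the trimmed mean of M values (TMM), and the 2 experiments were rescaled separately, so levels are compared only within an experiment. The column totals ran from 551379 at the 50% P stage to 1866500 at stage 3 in the time course, and from 1024512 to 2976429 in the explants. The highest explant total was that of proximal replicate 4 at 5 dpa. Between 1990 and 7439 genes were listed at 0 per explant sample. Medial replicate 2 at 5 dpa had the most, medial replicate 2 at 3 dpa had 6099 and proximal replicate 4 at 5 dpa had 5436. No explant samples were copies of each other, the highest correlation between a pair of samples being 0.988. Depth is not recorded in TPM, so no counting error can be given.

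In the time course, the median over the members was 19.3 TPM at 48 hpa and 13.1 TPM at 72 hpa. It was 2.28 TPM in the control, 1.51, 1.10 and 0.876 TPM at stages 3, 4 and 5, and 0.877 and 0.505 TPM in the 50% P and 50% D samples. By these medians the members stood above the control early on, which the choice required of each member, and below it later. The later part did not hold for each member, since for some a later sample was above the control. In ranks within a sample, which do not depend on the scaling, the median member lay at percentile 94.0 at 48 hpa, 92.5 at 72 hpa, 75.8 in the control and 53.9 in the 50% D sample. The control held the highest of the other 6 values for 56 members, stage 3 for 14, the 50% P sample for 12, stage 5 for 10, stage 4 for 7 and the 50% D sample for 1. The 56 include 9 members listed at 0 in all 6 samples, ties that were counted under the control. At the same column total, all 100 members kept a score above 1, with a median of 2.40 against 1.64 in the deposited scaling.

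**Figure D1:**
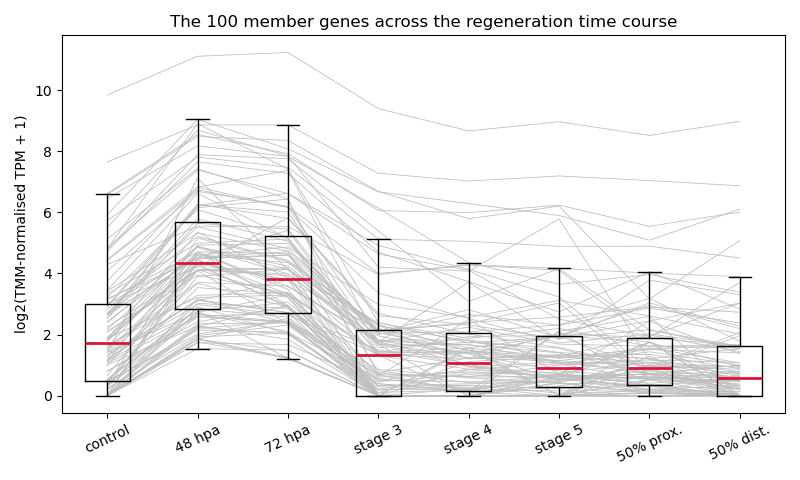
Expression of the 100 members in the 8 time-course samples, as log2(TMM-normalised TPM + 1) on the y axis against stage on the x axis, where 50% prox. and 50% dist. are the 50% P and 50% D samples. Each grey line is 1 gene, boxes span the quartiles and red lines are medians, which peak at 48 and 72 hpa. The members were chosen on these values, with 1 sample per stage.

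The members covered a wide range of levels. At both 48 and 72 hpa, 74 members reached 5 TPM, 55 reached 10 TPM and 12 reached 100 TPM. The strongest score, 3.48, was that of AFI21915, with 74.6 TPM at 48 hpa, 63.5 TPM at 72 hpa and 4.76 TPM in the control. AFI12554 followed with 24.7 TPM at 48 hpa and 10.1 TPM at 72 hpa and was listed at 0 in the other 6 samples, as were 9 members in all. Next came AFI13667 (70.1 and 85.3 TPM at 48 and 72 hpa, 6.51 TPM in the control), AFI09742 (112 and 165 TPM, 12.5 TPM) and AFI25218 (48.8 and 42.8 TPM, 4.76 TPM). The most abundant member was AFI07668, with 2203 TPM at 48 hpa and 2399 TPM at 72 hpa against 913.8 TPM in the control.

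The threshold fell among genes that differ in level more than in score. Just inside it, AFI27056 had 463.8 and 463.7 TPM at 48 and 72 hpa and at most 198.8 TPM elsewhere, and AFI18763 had 2.61 and 1.31 TPM and was listed at 0 elsewhere. Just outside it, AFI30228 had 4.51 and 4.66 TPM against at most 1.40 TPM, and AFI06131 had 81.3 and 97.0 TPM against at most 34.97 TPM. In all, 2680 genes had both early values above the other 6, and 151 genes had a score above 1.

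Of the members, 71 were higher at 48 than at 72 hpa and 29 the reverse. By more than 2-fold, 15 were higher at 48 hpa, among them AFI15320 (476.5 TPM against 169.8 TPM), and 1, AFI32174, was higher at 72 hpa (17.6 TPM against 55.5 TPM). These ratios come from single samples whose totals were 751116 and 612357.

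A name could be given to 3 members, which are on the study's list of chromosome 1 genes, and the other 97 are described by identifier, since the tables used here do not pair identifiers with names. AFI31186, named Agrg7-5, lies on the plus strand of chromosome 1 from 37234326 to 37259850 of the study's assembly. It encodes a protein like an adhesion G protein-coupled receptor, with the GPS motif at which such receptors cleave themselves and a 7-helix transmembrane domain. AFI31568, named Co3-6 and on the plus strand from 23797034 to 23914984, encodes a protein like complement C3, the central protein of the complement cascade, with alpha-2-macroglobulin and thioester domains. AFI31077, named Sept3 and on the plus strand from 59441018 to 59499252, encodes a septin, a GTP-binding protein that forms filaments below the membrane and acts in cell division in yeast and animals. The names are matches to SwissProt proteins. Agrg7-5 and Co3-6 are also on the study's immune list, which has 75 genes on chromosome 1, 70 of them in the time course. None of the chromosome 1 genes on the kinase, transcription factor, stemness or *A. filiformis* lineage lists is a member. These lists have 36, 36, 8 and 127 genes in the time course. Only 3 of all 1125 listed chromosome 1 genes there are members, so the lists are too small for the absence to be read.

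The first question put to the explants was whether genes of the early peak also differ at the distal wound, which regenerates, and at the proximal wound, which only closes. At 3 dpa, 20 members were higher in distal than in medial segments and 1 was lower, against 1.7% and 0.284% of the 21442 genes tested. In proximal segments, 21 were higher and 0 lower than in medial segments, against 0.438% and 0.00933% of genes tested. A call here is a Benjamini–Hochberg adjusted p under 0.05 in limma and an absolute difference over 1 in log2(value + 1), and all 100 members passed the filter of 1 TPM in at least 3 samples. In either direction, 1.98% of genes tested were called distally and 0.448% proximally. Of the members, 2 were below medial proximally at an unadjusted p under 0.05. The median difference over members was 0.36 distally and 0.56 proximally, and 0.0052 and 0.02 over all genes tested. Values were positive for 69 and 78 members. Without medial replicate 2, the sample of this day with the most genes at 0, and its 2 counterparts at 5 dpa, 23 members were called distally and 22 proximally. Read from the other side, the members made up 5.49% of the 364 genes called higher distally and 22.3% of the 94 called higher proximally. Both comparisons use the same medial samples. In bulk segments, more cells of a type and more RNA per cell cannot be told apart.

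At 5 dpa, 15 members were higher and 4 lower in distal than in medial segments, against 3.42% and 2.05% of genes tested. In proximal segments, 25 were higher and 0 lower, against 1.52% and 0.438% of genes tested, with 1 member below medial at an unadjusted p under 0.05. The median differences over members were 0.29 distally and 0.56 proximally, and 0.0079 and -0.0042 over all genes tested. In either direction, 5.47% of genes tested were called distally and 1.95% proximally. These counts were less steady than those at 3 dpa. Fitting only the groups compared left 7 of the 19 distal and 3 of the 25 proximal calls. The same restriction at 3 dpa kept all 21 distal and all 21 proximal calls. The model of all samples gives each gene 1 spread for both days. Its SE and p-values at 5 dpa therefore do not reflect a spread particular to that day. Without distal replicate 1, 11 members were called distally in either direction and the distal median was 0.16, and without medial replicate 5 that median was 0.19. Without proximal replicate 1 or 4, 16 members were called proximally. Without proximal replicate 5, in which the median over members of log2(value + 1) was 3.65 against 4.30 and 4.22 in replicates 1 and 4, 40 were called and the proximal median was 0.85. Leaving out together the 3 samples with the most genes at 0 gave 22 members distally and 16 proximally. At the same column total, the distal calls were 7 higher and 6 lower, and 10 members were higher proximally against 0.282% of genes tested. Distally, 896 genes were called at that scaling, of which 358 were higher, or 1.77% of genes tested.

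**Figure D2:**
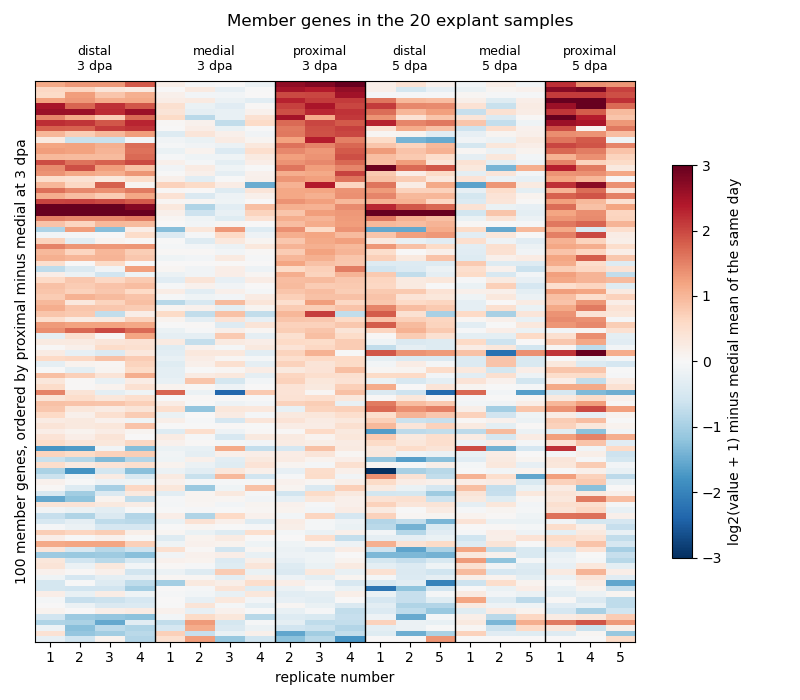
Each row is 1 of the 100 members and each column 1 of the 20 explant samples, ordered by segment and day and numbered by replicate. Colour gives log2(value + 1) minus the mean of the medial samples of the same day, limited to 3 in either direction, and rows follow the proximal minus medial difference at 3 dpa. The upper rows are above medial in most samples of both ends. Proximally at 3 dpa this follows from the order of the rows, and both ends are set against the same medial means.

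Distal and proximal segments also differed from each other directly. At 3 dpa, 4 members were higher distally and 5 proximally, against 0.149% and 0.173% of genes tested. At 5 dpa, 1 was higher distally and 7 proximally, against 0.466% and 0.947% of genes tested. The median distal minus proximal difference over members was -0.18 at 3 dpa and -0.30 at 5 dpa, and it was negative for 63 and 79 members. Over all genes tested it was -0.0059 and 0.03. At the same column total, the median at 5 dpa was -0.0882, where that of all genes was 0.16. In either direction these are 9 and 8 members, against 0.322% and 1.41% of genes tested. The count of 9 at 3 dpa became 5 when proximal replicate 2, 3 or 4 was left out, and the count of 8 at 5 dpa became 17 without proximal replicate 5 and 2 when only the groups compared were fitted. In mean level, 49 members were highest in proximal, 34 in distal and 17 in medial segments at 3 dpa, and 58, 18 and 24 at 5 dpa. Among all genes tested, 29.0% and 27.3% were highest in proximal segments on these days.

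Calls were also counted by rank of the score. Of the next 100 genes by score, 99 were tested and 5 were higher distally at 3 dpa, 5 proximally at 3 dpa, 1 distally at 5 dpa and 8 proximally at 5 dpa. Thus 1.01% of them were higher distally at 5 dpa, below the 3.42% of all genes. Proximally at 3 dpa the shares were 4.5% at ranks 201 to 500, 2.49% at ranks 501 to 1000, 0.115% at ranks 1001 to 2000 and 0.662% at ranks 2001 to 5000. Distally at 5 dpa they were 3.81%, 0.622%, 1.03% and 0.331%. Within the members, the score itself was not related to the explant difference, with a Spearman rho of 0.05 for distal and 0.09 for proximal against medial at 3 dpa, given as a description over 100 genes measured in the same samples. The counts were also taken among genes of higher level only. With a filter of 5 TPM in at least 3 samples, which 87 members passed, 21 were called higher proximally at 3 dpa and 25 at 5 dpa, against 0.841% and 3.0% of the 10702 genes tested. Of these, 19 and 22 were also called with the filter of 1 TPM. Distally, 20 were higher at 3 dpa and 14 at 5 dpa, against 3.19% and 5.97% of those genes. At the same end 2 and 5 were lower, against 0.57% and 3.73%.

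**Figure D3:**
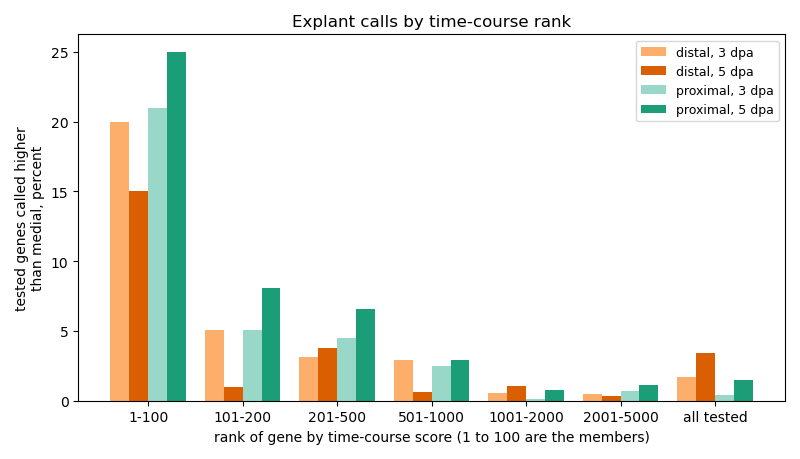
Share of tested genes called higher than medial, in percent on the y axis, by rank of the time-course score on the x axis, for distal and proximal segments at 3 and 5 dpa. The members are ranks 1 to 100, with 15% to 25% called, and the last bars are all 21442 genes tested.

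A first group of members was higher at both ends. It held 15 members at 3 dpa and 12 at 5 dpa, against 0.224% and 0.793% of genes tested. In all 4 comparisons with medial segments 6 members were higher, against 0.112% of genes tested, namely AFI25218, AFI05681, AFI17594, AFI24950, AFI18344 and AFI00464. Fitting only the groups compared left 3 of the 25 proximal calls at 5 dpa. At most 3 of these 6 members therefore keep all 4 calls in that fit. The proximal adjusted p-values at 5 dpa given below for single genes come from the model of all samples unless another fit is named. Per-sample values below follow the order of the replicate numbers. AFI25218 had 30.2, 28.8, 23.7 and 32.1 TPM in distal, 5.89, 6.36, 3.03 and 9.10 TPM in medial and 21.03, 26.2 and 22.96 TPM in proximal segments at 3 dpa. On day 5 they were 21.8, 11.7 and 12.9 TPM distally, 7.29, 1.82 and 3.23 TPM medially and 26.4, 24.2 and 10.5 TPM proximally. On both days each sample of either end was above each medial sample. The distal minus medial difference was 2.13 ± 0.33 (SE, adjusted p = 0.000398) at 3 dpa and 1.78 ± 0.38 (SE, adjusted p = 0.00411) at 5 dpa, and the proximal minus medial difference was 1.85 ± 0.35 (SE, adjusted p = 0.0138) and 2.11 ± 0.38 (SE, adjusted p = 0.00435).

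AFI24950 was the most changed of these distally at 3 dpa. Its values were 59.9, 59.00, 46.6 and 59.03 TPM in distal, 12.2, 7.37, 7.59 and 9.99 TPM in medial and 37.4, 47.2 and 44.6 TPM in proximal segments. The differences from medial were 2.49 ± 0.26 (SE, adjusted p = 8.25e-06) and 2.12 ± 0.28 (SE, adjusted p = 0.000464). At 5 dpa its medial values were 11.2, 26.03 and 21.8 TPM, against 61.05, 38.3 and 45.1 TPM distally and 85.9, 68.3 and 36.7 TPM proximally, again without overlap, and the differences were 1.30 ± 0.30 (SE, adjusted p = 0.00692) and 1.64 ± 0.30 (SE, adjusted p = 0.00452).

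AFI05681 gave 18.9, 11.1, 15.3 and 11.9 TPM distally, 4.01, 2.14, 1.84 and 2.67 TPM medially and 13.7, 18.5 and 13.3 TPM proximally at 3 dpa, and its proximal values at 5 dpa were 21.95, 36.3 and 11.6 TPM against 4.24, 1.42 and 3.58 TPM in medial segments. The latter difference was 2.51 ± 0.35 (SE, adjusted p = 0.000508), and its call was lost when only the groups compared were fitted (adjusted p = 0.164). Both ends lay apart from the medial samples at 3 dpa. AFI18344 and AFI00464 changed less. Their 4 differences from medial ran from 1.05 to 1.53 and from 1.13 to 1.48. For AFI00464, the 3 dpa values were 141, 134, 134 and 143 TPM distally, 50.5, 44.6, 37.8 and 66.8 TPM medially and 105, 100.5 and 119 TPM proximally, so that each end stood clear of the medial range.

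AFI17594 was higher at both ends but more so proximally. At 3 dpa it had 7.63, 8.30, 7.05 and 7.22 TPM in distal, 3.36, 3.50, 2.34 and 2.01 TPM in medial and 17.7, 14.9 and 14.9 TPM in proximal segments. Proximal values at 5 dpa were 30.4, 41.2 and 14.6 TPM, the distal values 9.37, 5.72 and 5.56 TPM and the medial values 2.88, 1.65 and 2.92 TPM. The 3 segments did not overlap on either day. The distal minus proximal difference was -0.98 ± 0.26 (SE, adjusted p = 0.116) at 3 dpa, not called, and -1.83 ± 0.28 (SE, adjusted p = 0.00141) at 5 dpa, a call lost when only the groups compared were fitted (adjusted p = 0.15).

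**Figure D4:**
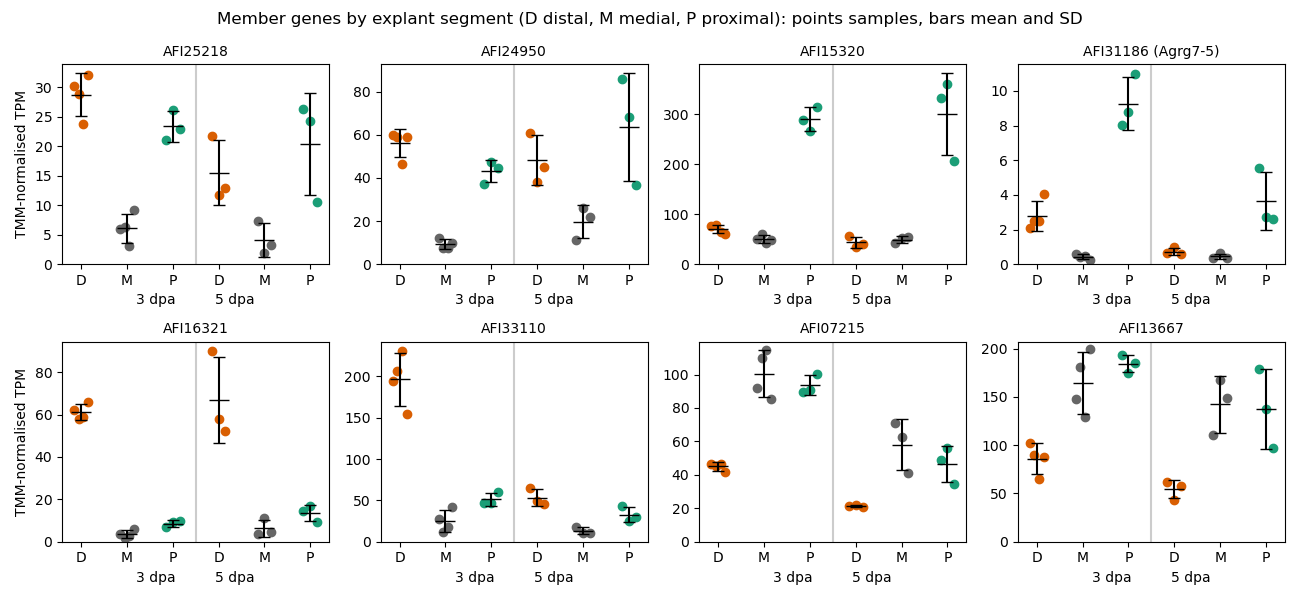
TMM-normalised TPM of 8 members by explant segment (D distal, M medial, P proximal) at 3 and 5 dpa. Points are samples, horizontal marks are means and bars are SD, with 3 or 4 samples per group. AFI25218 and AFI24950 are above medial at both ends, AFI15320 and AFI31186 are highest proximally, AFI16321 and AFI33110 highest distally, and AFI07215 and AFI13667 lowest distally.

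A second group was higher at the proximal end and was called above the distal end as well on at least 1 day. AFI15320, among the most abundant members at 48 hpa, had 288, 266 and 315 TPM in proximal segments at 3 dpa, against 77.1, 78.6, 65.2 and 60.7 TPM in distal and 50.2, 60.2, 42.4 and 49.4 TPM in medial segments. At 5 dpa the proximal values were 333, 361 and 207 TPM, and the distal and medial values were 55.6, 33.9 and 41.02 TPM and 42.3, 52.2 and 53.7 TPM. Its proximal samples lay far above all others, while the distal and medial ranges overlapped at 5 dpa. The distal minus proximal difference was -2.03 ± 0.20 (SE, adjusted p = 0.000119) at 3 dpa and -2.75 ± 0.21 (SE, adjusted p = 2.66e-06) at 5 dpa, and the distal minus medial difference was not called on either day, at 0.47 ± 0.18 (SE, adjusted p = 0.139) and -0.20 ± 0.21 (SE, adjusted p = 0.59).

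The receptor gene Agrg7-5 (AFI31186) followed a similar order at lower levels. It had 8.03, 8.79 and 11.00 TPM in proximal, 2.11, 2.48, 2.51 and 4.07 TPM in distal and 0.612, 0.397, 0.447 and 0.266 TPM in medial segments at 3 dpa. All 3 segments were apart, with distal minus medial at 1.39 ± 0.19 (SE, adjusted p = 0.000139), proximal minus medial at 2.84 ± 0.21 (SE, adjusted p = 4.85e-07) and distal minus proximal at -1.45 ± 0.21 (SE, adjusted p = 0.00231). Later, at 5 dpa, it had 5.57, 2.74 and 2.62 TPM proximally, 0.643, 0.965 and 0.576 TPM distally and 0.371, 0.620 and 0.357 TPM medially. The proximal difference from medial was then 1.63 ± 0.22 (SE, adjusted p = 0.000437), and the distal and medial ranges overlapped. AFI31186 was also lower at 5 than at 3 dpa, with a difference of -1.12 ± 0.21 (SE, adjusted p = 0.00836) in distal and -1.19 ± 0.22 (SE, adjusted p = 0.0451) in proximal segments. The proximal call between days was lost in 4 of 6 fits that left out a sample and when only the groups compared were fitted (adjusted p = 0.246).

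AFI10967 and AFI01726, singled out after their values were seen, were also highest proximally on both days. AFI10967 had 3.20, 3.21 and 5.10 TPM proximally and 0.575, 1.51, 0.894 and 1.20 TPM distally and 0.173, 0, 0 and 0.0597 TPM medially at 3 dpa, and 3.38, 3.37 and 2.90 TPM proximally at 5 dpa, when all 3 distal samples were listed at 0 and the medial samples had 0.0647, 0 and 0 TPM. AFI01726 had 5.63, 7.35 and 7.80 TPM proximally, 3.44, 2.66, 3.35 and 4.25 TPM distally and 0.678, 1.84, 1.45 and 1.04 TPM medially at 3 dpa. Its proximal values at 5 dpa were 4.52, 4.32 and 2.96 TPM, above the distal values of 1.17, 1.22 and 0.645 TPM, with a distal minus proximal difference of -1.29 ± 0.21 (SE, adjusted p = 0.0024), and the medial values were 0.775, 1.22 and 1.33 TPM, overlapping the distal ones. Both genes were low, so that single samples were near the lower end of what the table lists.

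A further group was higher at the distal end. AFI16321 had the largest distal minus medial difference of the members on both days, with 62.1, 58.00, 58.8 and 65.8 TPM in distal segments at 3 dpa against 3.82, 1.82, 2.68 and 5.90 TPM in medial and 6.72, 9.33 and 9.67 TPM in proximal segments. At 5 dpa it had 89.9, 57.96 and 52.2 TPM distally, 3.58, 11.04 and 4.50 TPM medially and 14.3, 16.8 and 9.51 TPM proximally. The distal samples were far above all others on both days, by 3.85 ± 0.29 (SE, adjusted p = 3.39e-07) and 3.29 ± 0.34 (SE, adjusted p = 7.71e-06) against medial. It was also the only member called above proximal segments on both days, by 2.71 ± 0.31 (SE, adjusted p = 0.000749) and 2.21 ± 0.34 (SE, adjusted p = 0.00126), the latter lost when only the groups compared were fitted (adjusted p = 0.0735). Proximal minus medial was not called, at 1.14 ± 0.31 (SE, adjusted p = 0.132) and 1.08 ± 0.34 (SE, adjusted p = 0.0666). In the time course, AFI16321 had 73.8 TPM at 48 hpa, 97.5 TPM at 72 hpa and still 29.3 TPM at stage 3.

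AFI33110 was distal above all at 3 dpa. Its values were 194, 206, 231 and 154 TPM in distal, 27.5, 11.3, 17.6 and 41.9 TPM in medial and 46.8, 46.6 and 60.4 TPM in proximal segments, so the distal samples stood apart. Distal minus medial was 3.09 ± 0.29 (SE, adjusted p = 4.25e-06) and distal minus proximal 1.91 ± 0.32 (SE, adjusted p = 0.00954), a call lost without proximal replicate 2 (adjusted p = 0.0666) or 3 (adjusted p = 0.0682). At 5 dpa the distal values were 65.3, 49.8 and 45.1 TPM, lower than at 3 dpa with a difference of -1.86 ± 0.32 (SE, adjusted p = 0.00478), and the proximal values of 43.1, 24.6 and 30.4 TPM were also above the medial values of 17.8, 11.04 and 10.8 TPM, by 1.24 ± 0.34 (SE, adjusted p = 0.0382).

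AFI14946, named after its values were seen, had 9.27, 11.99, 14.4 and 11.6 TPM distally, 2.40, 2.83, 3.41 and 3.06 TPM medially and 5.50, 5.95 and 4.14 TPM proximally at 3 dpa. Distal minus proximal was 1.05 ± 0.18 (SE, adjusted p = 0.0108). AFI01793 had 202, 210.02, 209 and 151 TPM distally against 83.02, 101, 99.1 and 84.1 TPM medially and 84.02, 95.7 and 81.6 TPM proximally, and its distal minus proximal difference of 1.13 ± 0.26 (SE, adjusted p = 0.0459) was lost in 6 of 7 fits that left out a sample. It was also lost with a pseudocount of 0.1, with no filter on low values and with scaling by the median of ratios (adjusted p = 0.0545, 0.0669 and 0.0582). In both genes the distal samples lay above the other segments at 3 dpa, and neither was called in distal or proximal segments at 5 dpa.

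A last group was lower at the distal end. AFI07215 had 46.5, 45.4, 46.8 and 41.5 TPM in distal segments at 3 dpa, against 92.01, 109.98, 115 and 85.3 TPM in medial and 89.3, 91.00 and 101 TPM in proximal segments. At 5 dpa the distal values were 21.5, 21.7 and 20.8 TPM, the medial values 70.7, 62.4 and 41.3 TPM and the proximal values 48.8, 56.1 and 34.7 TPM. Distal samples were below all others on both days, while medial and proximal samples overlapped. Distal minus medial was -1.13 ± 0.17 (SE, adjusted p = 0.000256) and -1.37 ± 0.19 (SE, adjusted p = 0.000163), and distal minus proximal -1.04 ± 0.18 (SE, adjusted p = 0.011) and -1.06 ± 0.19 (SE, adjusted p = 0.00475).

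AFI13667, among the top 3 by score, had 102, 89.9, 64.6 and 87.4 TPM distally, 148, 181, 129 and 199 TPM medially and 193, 175 and 185 TPM proximally at 3 dpa. At 5 dpa it had 62.4, 43.6 and 57.95 TPM distally, 110.2, 168 and 149 TPM medially and 179, 138 and 96.6 TPM proximally, again with the distal samples lowest. The distal minus medial difference was -0.93 ± 0.20 (SE, adjusted p = 0.00793) at 3 dpa, under the limit of 1, and -1.36 ± 0.24 (SE, adjusted p = 0.000937) at 5 dpa. The distal minus proximal difference was -1.11 ± 0.22 (SE, adjusted p = 0.0222) and -1.29 ± 0.24 (SE, adjusted p = 0.00479). The first of these was lost in 5 of 7 fits that left out a sample and at the same column total (adjusted p = 0.0629), and the second when only the groups compared were fitted (adjusted p = 0.186).

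AFI21915, first by score, had 0.967, 14.4 and 15.97 TPM in distal and 28.7, 27.4 and 31.2 TPM in medial segments at 5 dpa. All distal samples were lower, with replicate 1 far below the other distal samples, and the difference was -1.91 ± 0.54 (SE, adjusted p = 0.0232). Without distal replicate 1 it was -0.89 (adjusted p = 0.0622), and the call was also lost without medial replicate 2 or 5 (adjusted p = 0.0525 and 0.0557) or when only the groups compared were fitted (adjusted p = 0.175). At 3 dpa the distal values were 20.4, 10.99, 27.3 and 16.5 TPM against 35.6, 32.4, 51.96 and 45.2 TPM in medial segments, a difference of -1.14 ± 0.47 (SE, adjusted p = 0.159) that was not called. AFI23298, named after its values were seen, was lower at 5 dpa, with 16.3, 33.2 and 51.5 TPM distally, 77.8, 67.8 and 89.1 TPM medially and 66.2, 83.5 and 47.9 TPM proximally and a distal minus medial difference of -1.32 ± 0.30 (SE, adjusted p = 0.00628). In none of these 4 genes was proximal minus medial called.

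**Figure D5:**
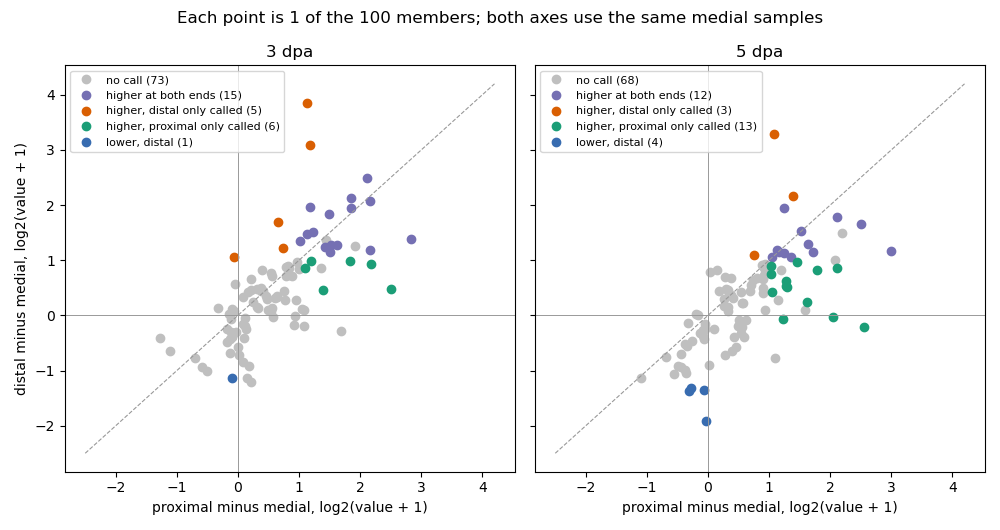
Distal minus medial (y axis) against proximal minus medial (x axis) differences in log2(value + 1) of the 100 members at 3 and 5 dpa, coloured by call with the number of members in brackets. The dashed line marks equal differences, and both axes share the medial samples, which by itself draws points along that line. At 5 dpa, 13 members were called higher only proximally and 3 only distally. Of these, 4 and 1 were also called different between the ends, so a call at only 1 end is not by itself a difference between ends.

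The most abundant members did not behave alike. AFI07015, with 526 TPM at 48 hpa, was higher at both ends at 3 dpa, with 244, 249, 235 and 213 TPM distally, 152, 139 and 117 TPM proximally and 61.2, 61.4, 54.2 and 59.6 TPM medially and differences of 1.97 ± 0.18 (SE, adjusted p = 2.9e-06) and 1.18 ± 0.19 (SE, adjusted p = 0.00374). AFI07668 was called at both ends only at 5 dpa, with 1686, 2241 and 2342 TPM distally, 2695, 3772 and 1109 TPM proximally and 759, 1204 and 936 TPM medially and differences of 1.12 ± 0.35 (SE, adjusted p = 0.0375) and 1.24 ± 0.35 (SE, adjusted p = 0.044). Its distal samples were above all medial samples, whereas proximal replicate 5 lay within the medial range. AFI27056 had 832, 748, 679.9 and 693 TPM distally, 826, 729.7, 744 and 742 TPM medially and 826, 797 and 855 TPM proximally at 3 dpa, with overlapping ranges and no call on either day. AFI23068, with 411 TPM at 48 hpa, likewise had no call, with 95.2, 52.9, 41.1 and 48.01 TPM distally, 103, 76.02, 49.2 and 77.1 TPM medially and 65.5, 58.5 and 86.7 TPM proximally at 3 dpa. AFI32174, the member that was over 2-fold higher at 72 than at 48 hpa, was higher distally at 5 dpa, with 19.1, 7.58 and 8.55 TPM against 2.25, 0 and 4.58 TPM medially and a difference of 2.17 ± 0.51 (SE, adjusted p = 0.00845). That call was lost without the 3 samples with the most genes at 0 (adjusted p = 0.0511) or when only the groups compared were fitted (adjusted p = 0.0837).

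In all, 35 members were higher and 4 lower in at least 1 of the 4 comparisons with medial segments, against 4.78% and 2.39% of genes tested, and 61 had no call, against 92.8% of genes tested. The latter include AFI12554 and AFI09742, ranked at the top by score. AFI12554, listed at 0 outside 48 and 72 hpa in the time course, was above 0 in all 20 explant samples, from 8.01 to 34.5 TPM. At 5 dpa it had 29.8, 30.3 and 9.92 TPM proximally, 9.60, 9.16 and 8.01 TPM medially and 14.98, 9.26 and 9.41 TPM distally, with proximal minus medial at 1.15 ± 0.39 (SE, adjusted p = 0.0874). AFI09742 had 81.5, 75.6, 82.5 and 84.6 TPM distally and 46.9, 42.02, 56.6 and 58.6 TPM medially at 3 dpa, which do not overlap, but the difference of 0.67 ± 0.17 (SE, adjusted p = 0.0217) was under the limit of 1. An adjusted p under 0.05 at any size was reached by 38 members for distal and 25 for proximal against medial at 3 dpa, against 7.57% and 0.686% of genes tested, and by 34 and 31 at 5 dpa, against 14.2% and 5.47%.

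The complement gene Co3-6 (AFI31568) had 23.03, 14.7 and 18.6 TPM distally, 13.6, 8.99 and 11.5 TPM medially and 18.6, 14.5 and 12.1 TPM proximally at 5 dpa. Its distal samples were above the medial samples, with a difference of 0.68 ± 0.20 (SE, adjusted p = 0.0275) that was under the limit of 1. At 3 dpa the values were 13.1, 12.2, 12.7 and 18.6 TPM distally and 9.76, 9.68, 9.95 and 9.70 TPM medially, with a difference of 0.47 ± 0.17 (SE, adjusted p = 0.104). The septin gene Sept3 (AFI31077) had 30.6, 27.9, 30.3 and 25.9 TPM distally, 19.8, 13.3, 18.97 and 16.05 TPM medially and 31.01, 32.8 and 28.6 TPM proximally at 3 dpa. Each end was above the medial samples, by 0.73 ± 0.19 (SE, adjusted p = 0.0238) and 0.83 ± 0.21 (SE, adjusted p = 0.0803), and at 5 dpa the differences were 0.66 ± 0.22 (SE, adjusted p = 0.0515) and 0.90 ± 0.22 (SE, adjusted p = 0.0229), so none was called.

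Between 3 and 5 dpa few members changed within a segment. In distal segments 5 members were lower and 0 higher, against 0.336% and 0.499% of genes tested, with 22 lower and 4 higher at an unadjusted p under 0.05, which 16.5% of genes tested reached. The 5 were AFI33110, AFI31186, AFI07215, AFI10967 and AFI01726. The median over members was -0.19, and -0.11 without distal replicate 2 at 5 dpa. At the same column total, 14 members were called and the median was -0.50, where that of all genes was -0.29. Among all genes tested, 243 were called at that scaling, 25 of them higher. In proximal segments 2 were lower and 0 higher, against 0.0373% and 0.0606% of genes tested, AFI31186 and AFI07215, with 11 lower and 13 higher at an unadjusted p under 0.05 (14.6% of genes tested). The proximal count became 0 when proximal replicate 2, 3 or 4 at 3 dpa or proximal replicate 4 at 5 dpa was left out, and 1 without proximal replicate 1 at 5 dpa, and the call of AFI07215 was lost in each of the 6 fits. In medial segments 0 members changed, against 0.00466% of genes tested, with 23 at an unadjusted p under 0.05 (11.5% of genes tested), and 3 changed when medial replicate 1 at 5 dpa was left out. For the change of the end minus medial difference between days, limma called 0 members distally, against 0.0886% of genes tested, and 0 proximally, against 0.0% of genes tested, with 19 and 8 at an unadjusted p under 0.05 (7.56% and 5.02% of genes tested). Of the 19, 18 were lower at 5 dpa, and the median distal difference between days was -0.33 over members, negative for 67 of them, and -0.0008 over all genes tested.

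The members were also split by their early values, as a description across genes. Of the 15 members over 2-fold higher at 48 than at 72 hpa, 6 were higher proximally at 3 dpa and 7 at 5 dpa, and 2 and 1 were higher distally. Of the 29 members higher at 72 than at 48 hpa, 3 and 2 were higher proximally and 4 and 4 distally. Over all 100 members, 21 and 25 were higher proximally and 20 and 15 distally. Among the members higher proximally and called above the distal end on at least 1 day, AFI15320, AFI31186, AFI10967 and AFI01726 had ratios of 48 to 72 hpa of 2.81, 2.95, 2.11 and 2.31, and AFI17594 of 1.60. AFI13667 and AFI07215 were also called higher proximally than distally on both days, though not above medial segments. Their ratios were 0.82 and 0.90. AFI16321 and AFI14946, described as distal, had ratios of 0.76 and 0.84, and AFI33110 and AFI01793 of 1.42 and 1.09. Over the 100 members, the log2 ratio of 48 to 72 hpa had a Spearman rho of 0.35 with the proximal minus medial and 0.10 with the distal minus medial difference at 3 dpa. The points share the same libraries and the ratio rests on 1 sample per time.

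Correlation between the members was also described across the 20 explant samples, without the same measure for other genes. The median Pearson r of the 4950 pairs of members was 0.21, and 68.5% of pairs had an r above 0. The genes outside the list whose profile was closest to the mean of the members, by Pearson r over 20 samples, were AFI00429 (r = 0.91), AFI16826 (r = 0.91) and AFI07594 (r = 0.91). The means of AFI16826 were 58.4 TPM in distal, 34.4 TPM in medial and 85.4 TPM in proximal segments at 3 dpa and 62.4, 37.3 and 90.4 TPM at 5 dpa, in the order proximal, distal, medial.

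Among the gene lists on chromosome 1, 47 immune genes were tested, and 1 of them, the member Agrg7-5, was higher distally at 3 dpa and proximally at 3 and 5 dpa. In distal segments at 5 dpa 0 immune genes were higher and 3 lower. Of the 26 kinase genes none was called in these comparisons, and of the 27 transcription factor genes 1 was higher, distally at 3 dpa. Of the 7 stemness genes, 1 was higher distally on each day, and of the 91 genes of the *A. filiformis* lineage none was higher and 2 were lower distally at 5 dpa, 1 proximally at 3 dpa and 1 at 5 dpa. Of all 860 chromosome 1 genes tested, 15 were higher and 6 lower distally at 3 dpa, and 28 and 17 at 5 dpa. Proximally, 3 were higher and 1 lower at 3 dpa, and 6 and 4 at 5 dpa. The lists were not tested against these counts. Markers of other cell types moved with the segments in part. The summed level of 7 ciliated cell markers, none of them at 0, was 41.4 to 52.3 TPM in distal and 30.1 to 48.3 TPM in proximal segments at 5 dpa and 25.8 to 30.7 TPM in medial segments. At 3 dpa it was 28.0 to 31.1 TPM distally, 25.9 to 28.5 TPM proximally and 24.7 to 29.4 TPM medially. Ranges of the 3 muscle and 4 neuron markers overlapped between medial segments and either end on both days, and 2 of the muscle markers were above 0 in every distal sample at 5 dpa. The immune list summed to 1036 to 1571 TPM in proximal and 1064 to 1138 TPM in medial segments at 5 dpa. The part of these cell types in the members' differences was not tested.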

How the data were processed

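Reads were pseudo-aligned to gene models with kallisto by the authors, and the deposited signal values are TPM that the authors rescaled with TMM in edgeR. For the explant table this scaling is known from its label only. TPM holds no depth. The 28 samples (8 time course, 20 explant) were grouped by their labels. The members and gene lists were chosen with earlier results of these data known.

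Explant values were tested as log2(value + 1) in limma 3.58.1 (R 4.3.3, trend on mean level), with the 6 groups of all 20 samples in a single model. Genes needed 1 TPM or more in 3 or more samples to be tested. Calls needed a Benjamini–Hochberg adjusted p under 0.05 over all genes tested and an absolute difference over 1. The p-values measure the spread between batches of explants, estimated for each gene over both days together. The fit was tested on simulated data. Tables and plots were made with pandas 2.3.3, numpy 2.4.6 and matplotlib 3.10.9 in Python 3.11.15.

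Genes were named by rule, namely 5 members with the highest score, 2 on each side of the threshold, those with a name, the 5 highest at 48 hpa, the 3 largest calls per comparison and direction with a mean of at least 5 and groups that do not overlap, and the 3 closest other genes. Further genes are marked as chosen after their values were seen, apart from those completing a count. No member identifier matched the RefSeq gene table.

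Samples with the same replicate number at 3 dpa deviated together between proximal and medial (r of 0.180 to 0.405, 3 pairs) and between proximal and distal segments (0.168 to 0.320). The numbers may thus pair these samples, which the labels do not state. For distal and medial segments (0.0169 to 0.279), and at 5 dpa, the values overlapped those of samples with other numbers. The p-values in the results come from the model without a replicate block. Tried as alternatives were a smaller pseudocount (0.1), looser and stricter filters, median-of-ratios and equal-total scaling, no trend, a model of the compared groups only, a replicate block, each sample left out and, added after the data were seen, the 3 samples with the most genes at 0 left out together and members chosen with other settings.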

Additional observations from a re-analysis of the deposited data

Results flagged for a closer look

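In groups of 4 samples, 4 of 46 groups of values (of the 22 named members and of the median over all members) held a sample set apart from the other 3, of which chance gives about 1 in 20. In distal segments at 3 dpa, AFI24950 was 46.6 TPM in replicate 3 against 59.0 to 59.9 TPM in the others, AFI01793 was 151.0 TPM in replicate 4 against 201.9 to 210.0 TPM, and AFI07668 was 1287 TPM in replicate 4 against 829.0 to 878.8 TPM. In medial segments at 3 dpa, AFI27056 was 825.8 TPM in replicate 1 against 729.7 to 744.3 TPM. No member's difference from medial was called as different between 3 and 5 dpa.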

How the results depend on the processing

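The counts at 3 dpa were steadier than those at 5 dpa. Leaving out each sample gave 21 to 25 members called distally and 14 to 23 proximally against medial at 3 dpa, 11 to 21 distally and 16 to 40 proximally at 5 dpa, 5 to 10 and 7 to 17 between distal and proximal segments, and 4 to 6, 0 to 3 and 0 to 3 between days in distal, medial and proximal segments. The medians over members ran from 0.16 to 0.39 for distal against medial, from 0.42 to 0.85 for proximal against medial and from -0.54 to -0.20 for distal against proximal at 5 dpa, and from -0.26 to -0.11 and -0.14 to 0.22 between days in distal and proximal segments. Scaling to the same total, which moved sample medians of all genes by -0.03 to -1.01 on the log2 scale, gave 10 members proximally and 5 between ends at 5 dpa and 14 between days in distal segments, with medians of 0.17, -0.0882 and -0.50, and of -0.41 between days in proximal segments. Fitting only the groups compared gave 7 members distally, 3 proximally and 2 between ends at 5 dpa and 0 between days in proximal segments. A pseudocount of 0.1 moved the proximal median at 5 dpa to 0.75. The replicate block gave 16 in place of 25 proximally at 5 dpa, 14 of them shared. For proximal against medial and against distal segments at 3 dpa, where samples of the same number deviated together, it gave 24 and 12, which held all 21 and 9. It ended 1 of 26 named calls, AFI13667 between ends at 5 dpa (adjusted p = 0.063). Of 30 named calls, 8 were lost when only the groups compared were fitted and 4 without the 3 samples. Days could not be fitted with the block. Leaving out 3 samples together gave 16 proximally at 5 dpa and 0 between days proximally. The 2 proximal calls between days became 1 with a pseudocount of 0.1, a filter of 5 TPM or no trend, and 0 with no filter or the median of ratios. With a pseudocount of 0.1 in the rule, 60 of 100 members were shared, and 12 and 13 were called distally and proximally at 3 dpa, 9 and 16 at 5 dpa, and 3 and 1 between days in distal and proximal segments. Members chosen at the same total gave 14 between ends at 5 dpa and 1 distal difference between days. No named difference changed sign. Depth is unknown, so calls on low members cannot be weighed by it.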
